A study of Mus musculus with 14 samples.

Results

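The Nrf2 pathway was followed in mouse liver through 10 genes. These were the transcription factor gene Nfe2l2, which encodes Nrf2, its inhibitor Keap1, and 8 genes of antioxidant enzymes, Nqo1, Gclc, Gclm, Txnrd1, Srxn1, Gsr, Cat and Gpx1. They were chosen by name and were found on the arrays through the RefSeq accession of each probe, which named 19751 genes in all. The 10 genes were read by 12 of 39429 probes, 2 each for Gsr and Cat and 1 for every other gene, and values are those of the brighter probe where there were 2. All 12 probes were well above background in all 28 channels of the 14 arrays. In the RefSeq annotation of GRCm38.p6 the genes whose change passed the test lay at chr8:107388225-107403205 (Nqo1), chr9:77754535-77794489 (Gclc) and chr2:103453904-103485153 (Cat).

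The samples were livers of CD-1 mice, an outbred strain, for which no treatment was named, in 6 groups: males (M) and females (F) aged 3, 4 or 8 wk. Each group had 2 RNA pools, of 5 mice each at 3 wk and of 6 mice each at 4 and 8 wk, so that the spread between single mice was not measured. On each array an RNA pool of one group and an RNA pool of another, marked with different dyes, competed for the same probes, and the result was a ratio for each probe. There were 7 comparisons, written M3/F3, M4/F4 and M8/F8 for the sexes, M8/M3 and M8/M4 for age in males, and F8/F3 and F8/F4 for age in females, each with 2 arrays that held separate pools and had the dyes exchanged.

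Nrf2 is made continuously, and in an unstressed cell Keap1 binds it and hands it over for degradation. Oxidants and electrophiles modify Keap1, after which Nrf2 accumulates, pairs with small Maf proteins and binds antioxidant response elements near genes of quinone reduction, glutathione synthesis and the thioredoxin system. The liver, which handles many drugs and metabolic by-products, is a main site of this response, and catalase and glutathione peroxidase remove the hydrogen peroxide that its peroxisomes and mitochondria release.

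The core of the antioxidant response element, searched as TGACNNNGC on both strands, was found in the promoter windows of 4 of the 8 genes with a window in RefSeq (GRCm38.p6). The windows ran from 250 bases before to 50 bases after each start site. Of the 10 windows of these genes (3 for Txnrd1) 4 held the core, and of all 32851 windows 12.4% did. The matches are shown on the strand of the gene as the letters that the search found. The core or its reverse complement is in capitals, with 10 bases on each side.
Nfe2l2: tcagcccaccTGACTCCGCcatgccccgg
Gclm: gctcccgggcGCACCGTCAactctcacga
Txnrd1: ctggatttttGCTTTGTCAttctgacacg
Srxn1: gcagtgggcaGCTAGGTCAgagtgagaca
The Nfe2l2 stretch lay at chr2:75704885-75704913 on the minus strand, and its core began 240 bases before the start site. The Gclm stretch at chr3:122245413-122245441 and the Txnrd1 stretch at chr10:82859104-82859132, both on the plus strand, had the reverse complement beginning 134 and 92 bases before a start site. The Srxn1 stretch at chr2:152105542-152105570 on the plus strand had it 28 bases after the start site. The windows of Keap1, Nqo1, Cat and Gpx1 held no match, which says only that these letters were not in those windows, and Gclc and Gsr were not in the table. A match is a sequence description and not a measured binding site.

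A ratio is given as log2 of male over female or of the older over the younger age, so that a value of 0 is no difference. A gene was called, and is said to have risen or fallen, where the adjusted p (limma, Benjamini-Hochberg) was below 0.05 and the difference was larger than 1.5-fold in either direction, provided that the signal of 1 or both groups exceeded background clearly on each of the arrays. The comparisons are not independent of each other, since the same pools entered several of them: the 8 wk male pools were in M8/F8, M8/M3 and M8/M4. Between 55.2% and 77.2% of spots were well above background in a channel, no spot was saturated, and the number of arrays limits the precision. The sexes were as labelled on all 6 arrays that compared them, with Ddx3y, Eif2s3y, Uty and Kdm5d, which lie on the Y chromosome, higher in male pools on 6 of 6 and Xist on 0 of 6.

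Among the 10 genes, Nqo1, Gclc and Cat were called. Nqo1 fell in male liver to a ratio of 0.439 between 3 and 8 wk, and at 8 wk male liver had 0.505 of the female signal. Gclc was higher in males than in females at 4 wk (ratio 1.56) and at 8 wk (1.79), and Cat rose in male liver between 3 and 8 wk (1.61). No gene of the 10 was called in an age comparison of female liver. In these bulk samples less RNA per cell and fewer cells that make it cannot be told apart.

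In M3/F3 0 of the 10 genes were called, against 0.517% of all genes tested, and in M4/F4 1 was, against 1.58%. In M8/F8 2 were called, against 6.41% of all genes. In the male age comparisons the counts were 2 in M8/M3, where 17.9% of all genes were called, and 1 in M8/M4, where 10.8% were. In the female age comparisons both counts were 0, with 11.7% of all genes called in F8/F3 and 6% in F8/F4. At an unadjusted p below 0.05 (limma) 1 gene passed in M3/F3, 3 in F8/F3 and 4 in F8/F4, and with the error-weighted average no gene of the 10 was called in the female age comparisons.

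Most ratios of the 10 genes were inside the 1.5-fold threshold. Without its sign, their median log2 ratio was 0.334 in M8/F8, 0.316 in M8/M3 and 0.122 in F8/F3. For all genes tested it was 0.146, 0.255 and 0.214. Without the threshold on the ratio, the adjusted p alone (limma) was below 0.05 for 0 of the 10 genes in M3/F3 (2.89% of all genes), 2 in M4/F4 (7.9%) and 5 in M8/F8 (21.8%). With age it was so for 4 genes in M8/M3 (42%) and 3 in M8/M4 (29.6%), but for 1 in F8/F3 (33.7%) and for 0 in F8/F4 (21.3%). Over the 10 genes the median log2 ratio was 0.30 in M8/F8, 0.23 in M8/M3 and 0.00 in F8/F3. The medians of all genes tested were 0.00, 0.01 and 0.02. Of the 10 ratios 4 were below 0 in M8/F8, 3 in M8/M3 and 5 in F8/F3. The lowest in M8/F8 and M8/M3 were those of Nqo1, at -0.99 and -1.19. In M3/F3 the fitted ratio of 10 of 10 genes was above 0, with a median of 0.14, and 49.5% of all genes were above 0, but none of these 10 ratios passed the test and only 7 genes had the same sign on both arrays.

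**Figure D1:**
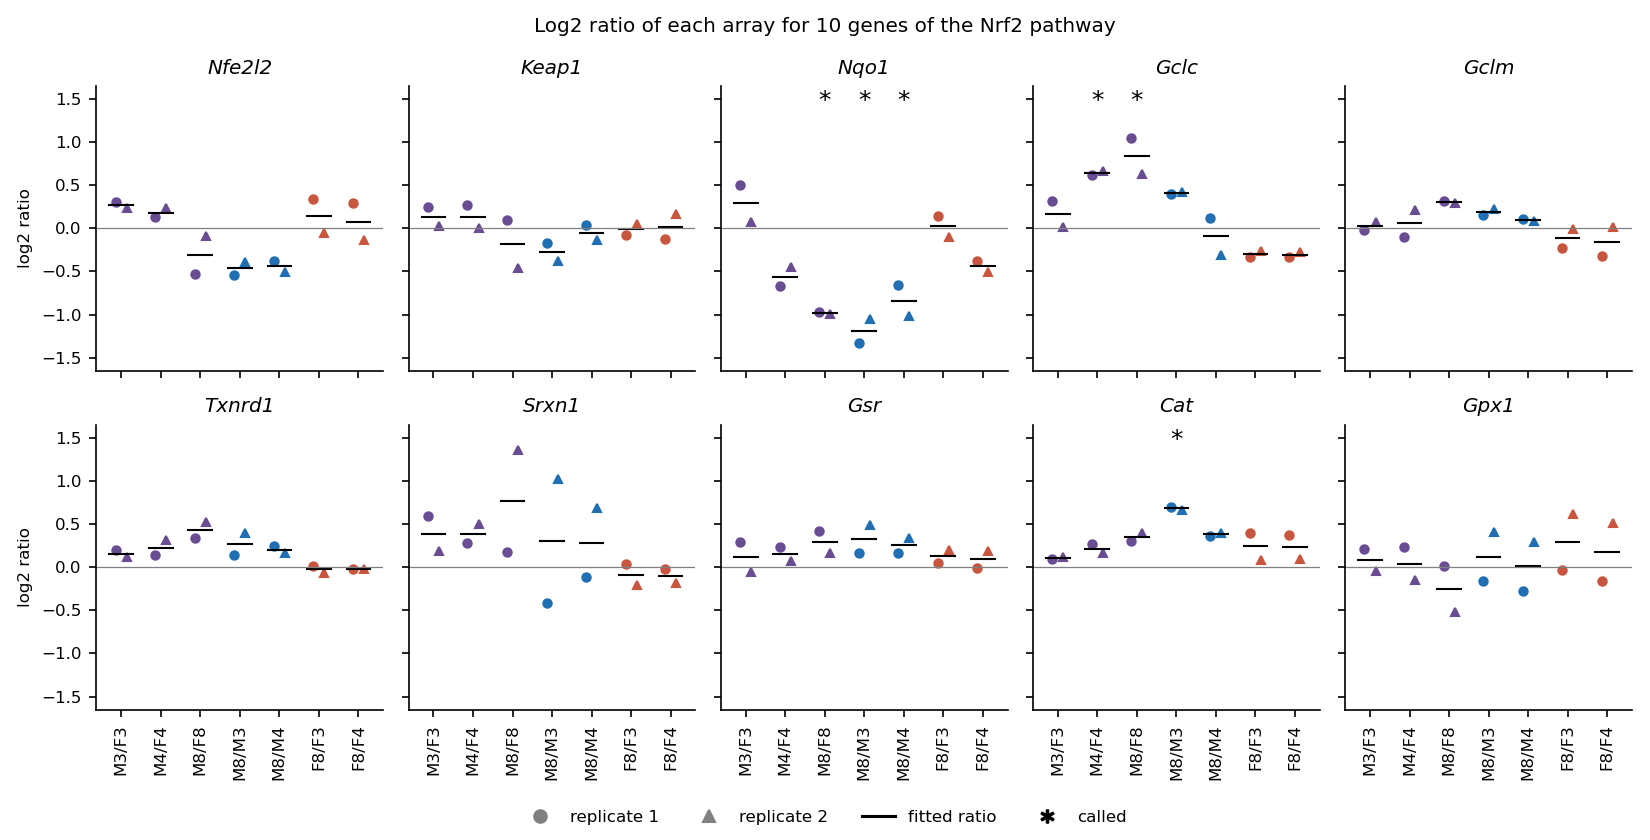
Log2 ratio (vertical axis) of the 10 genes in the 7 comparisons (horizontal axis), with a circle for replicate 1, a triangle for replicate 2, a black bar for the fitted ratio and an asterisk where the gene was called (purple for sex, blue for age in males, red for age in females). Nqo1 lies between -1.33 and -0.66 on every array of M8/F8, M8/M3 and M8/M4, Gclc lies between 0.61 and 1.05 on every array of M4/F4 and M8/F8, and the replicates of Srxn1 in M8/F8, M8/M3 and M8/M4 lie far apart.

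Nfe2l2, the gene of Nrf2 itself, had lower ratios in male liver with age, and none of the fitted values over both arrays reached the 1.5-fold threshold. The M8/M3 arrays gave log2 ratios of -0.54 and -0.39, and the fitted value of -0.46 (SE 0.12, n = 2 arrays) had an adjusted p of 0.0428 (limma). Without the second of these arrays it was called at -0.66 (adjusted p = 0.046), and over all alternatives it ranged from -0.66 to -0.27 with adjusted p-values of up to 0.36. The M8/M4 arrays gave -0.37 and -0.51, fitted at -0.44 with an adjusted p of 0.0504. All 4 arrays of male age lay below 0, and they share the M8 pools.

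In female liver the F8/F3 arrays gave 0.34 and -0.06 for Nfe2l2 and the F8/F4 arrays 0.30 and -0.14, so that the arrays of each comparison differed in sign. The sexes differed by 0.31 and 0.24 at 3 wk, by 0.13 and 0.23 at 4 wk, and by -0.53 and -0.09 at 8 wk. Male liver thus had the higher signal on all 4 arrays at the younger ages and the lower signal on both arrays at 8 wk, with adjusted p-values (limma) of 0.192, 0.417 and 0.139. The change from 3 to 8 wk differed between the sexes by -0.60 with an adjusted p of 0.105, and this was called (adjusted p = 0.0167) when the pools shared between arrays entered the covariance. The lowest normalized signal was that of M8, with pools at 13.31 and 13.43 (log2). The pools of M3, at 13.90 and 13.80, and of M4, at 13.69 and 13.89, overlapped. The 3 female groups lay between 13.49 and 13.75.

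Keap1, the protein that holds Nrf2 down, was not called in any comparison. Its fitted log2 ratios ran from -0.27 in M8/M3 to 0.13 in M3/F3, and the M8/M3 arrays gave -0.17 and -0.37. The 95% confidence interval of M8/M3 ran from -0.58 to 0.03 and that of F8/F3 from -0.31 to 0.29.

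Nqo1 encodes a quinone reductase that spares cells the radicals of quinone cycling and is widely used to read Nrf2 activity. Its signal was lowest in adult male liver, where the pools gave 9.02 and 8.98 (log2 normalized signal), below all pools of the 5 other groups. The other pool values were 10.35 and 10.14 in M3, 9.69 and 10.02 in M4, 9.84 and 10.01 in F3, 10.44 and 10.46 in F4, and 10.04 and 9.88 in F8. Among these, F8, F3 and M4 had means of 9.96, 9.92 and 9.86 that differed by less than the spread of the M4 pools (SD 0.24, n = 2 pools).

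The fall of Nqo1 with age was seen on every array of male liver. The M8/M3 arrays gave log2 ratios of -1.33 and -1.05 (fitted -1.19, SE 0.14, adjusted p = 0.00228, limma). The M8/M4 arrays gave -0.66 and -1.02 (fitted -0.84, adjusted p = 0.00874), and without the second of these the adjusted p was 0.0986. In female liver the F8/F3 arrays gave 0.14 and -0.10 (fitted 0.02, 95% confidence interval -0.31 to 0.35) and the F8/F4 arrays -0.38 and -0.50 (fitted -0.44, adjusted p = 0.0868).

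The sexes also differed in Nqo1. At 8 wk the arrays gave -0.976 and -0.998, with a fitted log2 ratio of -0.99 (SE 0.14, adjusted p = 0.00465, limma). At 4 wk the arrays gave -0.67 and -0.45, and the fitted ratio of 0.678 (adjusted p = 0.039) was just inside the 1.5-fold threshold and not called. At 3 wk the arrays gave 0.51 and 0.07, which were above 0 and did not pass the test (adjusted p = 0.248).

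The difference between male and female liver in the change of Nqo1 from 3 to 8 wk was called. M8/M3 minus F8/F3 was -1.21 (SE 0.20, adjusted p = 0.0227, limma), and 3.36% of all genes were called in this contrast. These arrays were scanned on 2 days, M8/M3 on the first and F8/F3 on the second. Arrays of the first day alone, read as M8/F8 minus M3/F3, gave -1.27. With any 1 of the 4 arrays of M8/M3 and F8/F3 left out, the contrast ranged from -1.39 to -1.03 and its adjusted p from 0.0587 to 0.123. From 4 to 8 wk the difference for Nqo1 was -0.40 (adjusted p = 0.463), and 0 of the 10 genes were called in this contrast (2 at an unadjusted p below 0.05, limma), against 1.31% of all genes.

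Macrophage markers also were lower in adult male liver. Of all genes 3.76% were called lower in M8/F8, 10.1% in M8/M3 and 6.64% in F8/F3. Of the 6 markers measured, 4 (Adgre1, Clec4f, Marco and Timd4) were called lower and 0 higher in M8/F8, 2 lower in each male age comparison and 1 lower in each female one. Their summed signal was 15800 to 20000 in the M8 pools, 25400 to 27000 in F8 and 25400 to 27400 in M3, and all 6 were well above background in every channel. Whether this has a part in the Nqo1 values was not tested.

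**Figure D2:**
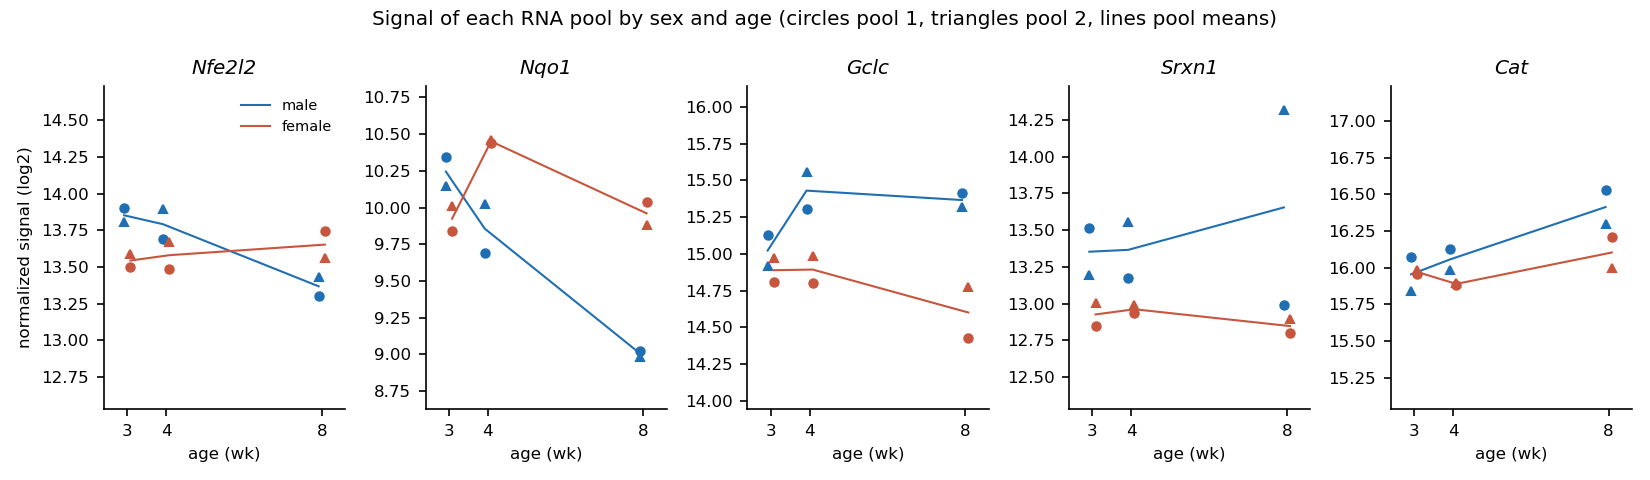
Normalized signal (log2, vertical axes, each spanning the same range) of Nfe2l2, Nqo1, Gclc, Srxn1 and Cat against age in weeks, in male (blue) and female (red) liver, with a circle for pool 1, a triangle for pool 2 and lines through the means of the pools. The M8 pools of Nqo1 lie at 9.02 and 8.98, below all others, and the M8 pools of Srxn1 lie at 12.99 and 14.32.

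Gclc encodes the catalytic subunit of glutamate-cysteine ligase, the rate-limiting enzyme of glutathione synthesis, and Gclm its modifier subunit. Gclc exceeded its female level in male liver at both older ages. The M4/F4 arrays gave log2 ratios of 0.61 and 0.67 (fitted 0.64, SE 0.13, adjusted p = 0.0176, limma) and the M8/F8 arrays 1.05 and 0.63 (fitted 0.84, adjusted p = 0.00623). At 3 wk the arrays gave 0.31 and 0.02 (adjusted p = 0.523).

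The pools of Gclc did not overlap between the sexes at 4 and 8 wk. At 8 wk the pools were at 15.42 and 15.32 in males and 14.43 and 14.77 in females, and at 4 wk at 15.31 and 15.56 against 14.80 and 14.99 (log2 normalized signal). At 3 wk they overlapped, with 15.13 and 14.92 in males and 14.81 and 14.97 in females. The call at 4 wk did not hold when either M4/F4 array was left out (adjusted p 0.0843 and 0.139), when the p-values were adjusted within the comparison (0.0827), or with normexp background correction, where the log2 ratio of 0.57 fell under the fold threshold. The call at 8 wk did not hold without the first M8/F8 array (log2 ratio 0.63, adjusted p = 0.0622).

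With age, the ratios of Gclc had opposite signs in male and female liver between 3 and 8 wk. They were 0.40 and 0.42 in M8/M3 and -0.33 and -0.27 in F8/F3, and neither comparison was called (adjusted p 0.0839 and 0.192, limma). The difference between them was 0.71 with an adjusted p of 0.0872, and it was called at 0.69 (adjusted p = 0.0262) when the pools shared between arrays entered the covariance. From 4 to 8 wk the arrays gave 0.12 and -0.31 in males and -0.34 and -0.28 in females.

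Gclm was not called in any comparison. Its largest fitted log2 ratio was 0.30 in M8/F8, where the arrays gave 0.32 and 0.29 (adjusted p = 0.103, limma) and the 95% confidence interval ran from 0.06 to 0.54. In the other comparisons its ratio lay between -0.15 and 0.19.

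The thioredoxin system was read by Txnrd1, the cytosolic thioredoxin reductase, and by Srxn1, sulfiredoxin, which repairs overoxidized peroxiredoxins. Txnrd1 was somewhat higher in male liver at 8 wk, under the fold threshold. The M8/F8 arrays gave 0.34 and 0.53 (fitted ratio 1.35, adjusted p = 0.0106, limma). Its ratio was above 0 on all 10 arrays that compared the sexes or the ages of male liver. These arrays share pools and are not 10 independent measurements. In female liver its fitted ratios were -0.02 in F8/F3 and -0.02 in F8/F4 (95% confidence interval -0.20 to 0.16).

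The replicates of Srxn1 disagreed wherever the 8 wk male pools were used. The M8/F8 arrays gave 0.17 and 1.36, the M8/M3 arrays -0.42 and 1.02, and the M8/M4 arrays -0.12 and 0.69. The second M8 pool was at 14.32 (log2 normalized signal) and the first at 12.99, whereas the pools of every other group were within 0.38 of each other. Srxn1 was not called in any comparison, and the fitted M8/F8 log2 ratio of 0.77 had a 95% confidence interval from -0.17 to 1.71. With the error-weighted average, which takes the errors of the spots and not the difference between pools, M8/F8 was called at 0.68.

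Gsr, the reductase that returns oxidized glutathione to its reduced form, had small ratios. Its fitted ratios were 1.22 in M8/F8 (adjusted p = 0.00491, limma), 1.26 in M8/M3 (0.00307) and 1.19 in M8/M4 (0.00854), all under the fold threshold. In none of these 3 comparisons did the adjusted p stay below 0.05 under all alternatives. The array ratios were 0.42 and 0.17, 0.17 and 0.49, and 0.16 and 0.34 (log2), and for this brighter probe the higher value in 7 of 7 comparisons came from the array with the male or older pool in red. The dimmer Gsr probe had log2 ratios of 0.31, 0.35 and 0.26 in the same comparisons, with adjusted p-values of 0.0673, 0.046 and 0.115. Its arrays gave 0.20 and 0.42 in M8/F8 and 0.38 and 0.15 in M8/M4, where the higher value came from the array with the other dye than for the brighter probe. In M8/M3 they gave 0.28 and 0.41, where the higher value came from the same array as for the brighter probe.

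Cat encodes catalase, the peroxisomal enzyme that breaks down hydrogen peroxide. It rose in male liver between 3 and 8 wk, with log2 ratios of 0.70 and 0.67 on the M8/M3 arrays (fitted 0.68, SE 0.07, adjusted p = 0.00172, limma). The M8/M4 arrays gave 0.37 and 0.40 (fitted ratio 1.30, adjusted p = 0.0157), under the fold threshold. In female liver the F8/F3 arrays gave 0.39 and 0.09 and the F8/F4 arrays 0.37 and 0.10, above 0 on all arrays, with adjusted p-values of 0.0798 and 0.0885.

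The M8 pools of Cat were the highest, at 16.53 and 16.30 (log2 normalized signal), and those of M3 were at 16.07 and 15.84. At 8 wk the sexes differed by 0.31 and 0.40 (fitted ratio 1.28, adjusted p = 0.0209, limma). The dimmer probe of Cat gave a log2 ratio of 0.62 in M8/M3 (adjusted p = 0.00273), and with normexp background correction the brighter probe gave 0.58, just inside the threshold. The difference between the sexes in the change from 3 to 8 wk was 0.44 (adjusted p = 0.0713), and the same difference from arrays of the first scan day was 0.25.

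Gpx1, the main cytosolic glutathione peroxidase of liver, was not called in any comparison. In 7 of 7 comparisons its ratio was higher on the array with the male or older pool in red, by 0.26 to 0.68. In F8/F3 the arrays gave -0.03 and 0.62, and the fitted log2 ratio of 0.29 had an adjusted p of 0.039 (limma) with the dye term and of 0.644 without it. In M8/F8 the arrays gave 0.02 and -0.52 (fitted -0.25, adjusted p = 0.0694).

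**Figure D3:**
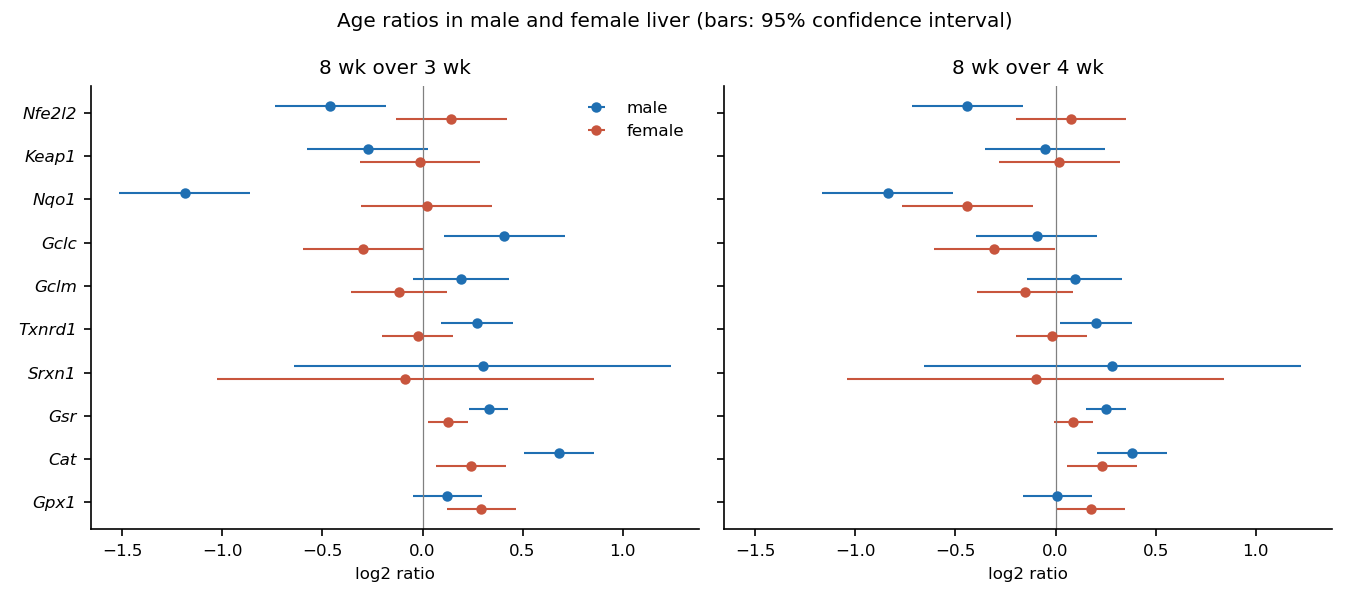
Fitted log2 ratios (horizontal axis) of 8 wk over 3 wk and of 8 wk over 4 wk for the 10 genes (vertical axis) in male (blue) and female (red) liver, with bars for the 95% confidence interval. For 8 wk over 3 wk the female intervals of all genes except Gsr, Cat and Gpx1 include 0. The intervals are not adjusted for the number of tests. The difference between the sexes from 3 to 8 wk was called only for Nqo1 (adjusted p = 0.0227, limma), against 3.36% of all genes.

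Between 3 and 4 wk 0 of the 10 genes were called in either sex. No array compared these ages. The ratio was taken as M8/M3 minus M8/M4 in males, where 0.292% of all genes were called, and as F8/F3 minus F8/F4 in females, where 0.0931% were. The male difference crosses the scan days, with M8/M3 on the first and M8/M4 on the second, while both female comparisons were on the second. The largest values were 0.50 for Gclc (95% confidence interval 0.08 to 0.93) and -0.35 for Nqo1 (-0.81 to 0.11) in males, and 0.46 for Nqo1 (0.00 to 0.93) in females. At an unadjusted p below 0.05 (limma) 2 genes passed in males, Cat at 0.30 and Gclc, and 0 in females.

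Further targets of Nrf2 were higher in adult male than female liver where they were called. Of 28 of them tested, 6 were called higher and 0 lower in M8/F8, where 2.65% of all genes were higher and 3.76% lower. In M8/M3 7 were higher and 1 lower, with 7.81% and 10.1% of all genes, and in F8/F3 2 were higher and 1 lower, with 5.08% and 6.64%. Their median log2 ratio was 0.23 in M8/F8, 0.29 in M8/M3 and 0.02 in F8/F3. They included genes of glutathione transferases, which couple glutathione to foreign compounds. The list was chosen with earlier results of these data known, so that its counts describe these genes and are not a test of Nrf2 targets.

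The largest ratios among these targets were those of Gstp1, Gsta2, Gsta1 and Aox1. Gstp1 gave log2 ratios of 3.86 and 2.78 in M8/F8 (fitted 3.32, adjusted p = 0.000485, limma) and 2.52 and 3.33 in M8/M3. Gsta2 gave 3.11 and 4.22 and Gsta1 2.98 and 4.22 in M8/M3. Their M8/F8 arrays lay far apart and were not called, at 0.74 and 3.02 for Gsta2 and 0.88 and 3.16 for Gsta1 (adjusted p 0.0844 and 0.0804, limma). The F8/F3 arrays gave 2.44 and 0.99 for Gsta2 and 2.56 and 0.86 for Gsta1, also not called (0.111 and 0.128). Gsta1 and Gsta2, like Gstp1 and its neighbour Gstp2, are near-identical copies whose signals these probes may share, so that each is uncertain as a single gene. Aox1, an aldehyde oxidase, gave 1.53 and 1.53 in M8/F8 and 1.70 and 2.04 in M8/M3.

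Among regulators and partners of Nrf2, Bach1, Maff and Mafk were called higher with age in both sexes. Of the 13 tested, 0 were called in M8/F8 (1 at an unadjusted p below 0.05, limma). In M8/M3 4 were higher and 0 lower, where 7.81% of all genes were higher, and in F8/F3 3 were higher and 0 lower, where 5.08% were. The difference between the sexes was called for 0 of the 13, both from 3 to 8 wk (1 at an unadjusted p below 0.05, against 3.36% of all genes called) and from 4 to 8 wk (0, against 1.31%). Bach1, a repressor that competes with Nrf2 for the same elements, gave log2 ratios of 1.00 and 1.03 in M8/M3 and of 0.96 and 0.44 in F8/F3 (adjusted p 0.00203 and 0.00834, limma). The small Maf gene Mafk rose with age in both sexes, with fitted log2 ratios of 0.61 against 3 wk and 0.62 against 4 wk in males and of 0.60 and 0.69 in females. Maff was called at 2.46, 1.75 and 1.47 in the first 3 of these comparisons. Btrc was called only in M8/M3, and Nfe2l3 only in M8/M4 (fitted 1.58), with -1.29 and -1.02 in F8/F3.

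Of 21 other antioxidant enzymes, 0 were called higher and 1 lower in M8/F8, 1 higher and 3 lower in M8/M3, and 1 higher and 2 lower in F8/F3. Over all genes the shares called higher and lower were 2.65% and 3.76% for the adult sexes, 7.81% and 10.1% for M8/M3 and 5.08% and 6.64% for F8/F3, so that these counts were near the background. The peroxidase-like genes Gpx7 and Gpx8, whose products reside in the endoplasmic reticulum, fell with age in both sexes. Gpx7 gave -2.14 and -2.36 in M8/M3 (adjusted p = 5.37e-05, limma) and -0.94 and -1.36 in F8/F3 (0.000129), and Gpx8 gave -0.84 and -0.95 in M8/M3 and -0.63 and -0.73 in F8/F3. The mesenchymal markers Col1a1, Col1a2 and Col3a1 fell in the same comparisons.

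Of 14 genes of glutathione synthesis and turnover tested, Gclc and Gclm among them, 1 was called higher (Gclc) and 2 lower in M8/F8, 2 higher and 2 lower in M8/M3, and 4 higher and 1 lower in F8/F3, beside the same shares of all genes. The 2 that were lower in adult male liver make the precursors of glutathione. Mat1a, which makes S-adenosylmethionine, gave -1.37 and -1.39 (adjusted p = 0.000117, limma), and Cth, which makes cysteine, gave -0.84 and -0.94 (adjusted p = 0.0118). On the same arrays Gclc was at 1.05 and 0.63.

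**Figure D4:**
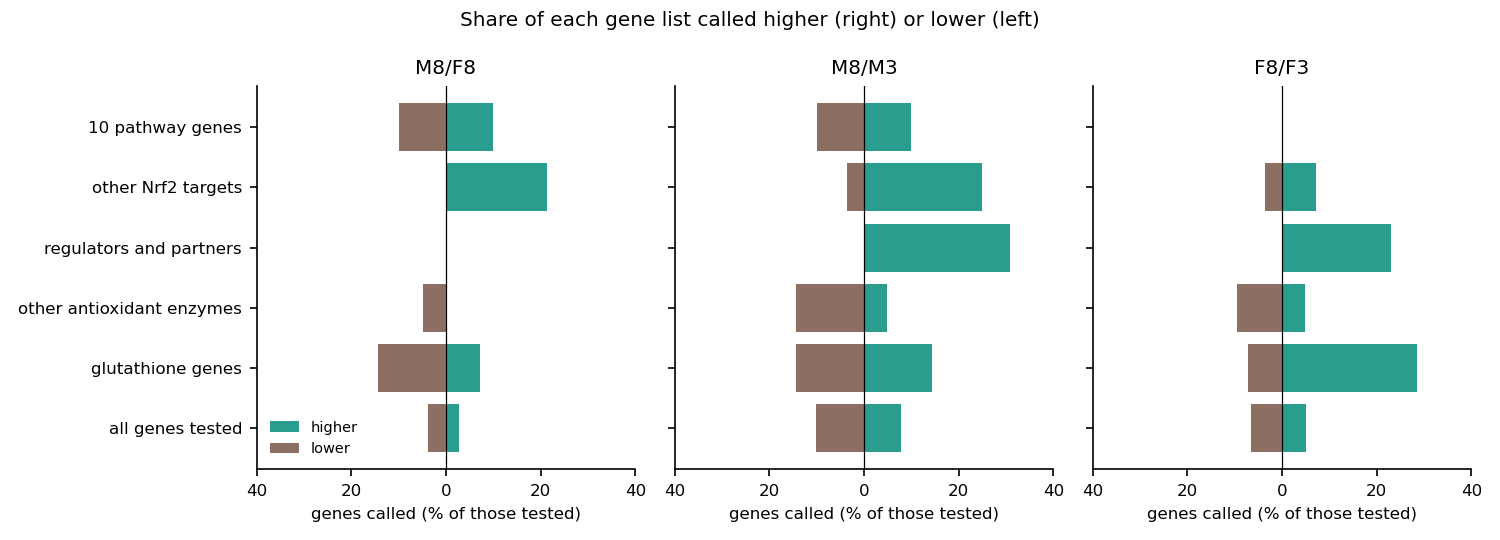
Share of the genes tested (horizontal axis, in percent) that were called higher (right) or lower (left) in M8/F8, M8/M3 and F8/F3, for the 10 pathway genes, the further lists and all genes. In M8/F8 6 of 28 further Nrf2 targets lie to the right and 0 to the left, and in F8/F3 the row of the 10 pathway genes is empty. The lists were chosen with earlier results of these data known.

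The genes whose array ratios most resembled those of Nqo1, Gclc and Cat were sought among 3535 other genes called in at least 1 comparison. Over the 14 arrays, which share pools, Nqo1 was nearest to Gbp2 (Pearson r = 0.941), Prom1 (0.933) and Cbr1 (0.923). Cbr1, a carbonyl reductase, had fitted log2 ratios of -0.93 in M8/F8, -1.05 in M8/M3 and -0.17 in F8/F3. Gclc was nearest to Nfil3 (0.921), Bet1 (0.91) and Sdr16c5 (0.895), and Cat to Cblc (0.921), Zbtb20 (0.916) and P2rx4 (0.916).

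Markers of other cells also differed between ages. All 6 proliferation markers fell in all 4 age comparisons, and their summed signal was 9110 to 9210 in M3, 5600 to 7910 in F3, 550 to 646 in M8 and 589 to 634 in F8. Neutrophil and myeloid markers were called lower for 7 of 8 in both M8/M3 and F8/F3. At the younger ages they were also lower in male pools, with 5 of 8 called lower in M3/F3 and 2 of 7 in M4/F4, whereas 0 of 5 were called in M8/F8 (3 at an unadjusted p below 0.05, limma). Erythroid markers were called lower for 5 of 7 in M8/M3 and 6 of 8 in F8/F3, with summed erythroid signals of 71400 to 77200 at 3 wk and 36800 to 46600 at 8 wk. Of the 8 markers summed, 4 in M8 and 3 in F8 were well above background in no channel. The erythroid gene Alas2, of haem synthesis, named after its values were seen, was instead called higher in M8/M3 (log2 ratio 1.37, adjusted p = 0.00229, limma) and in M8/F8 (1.89), and its change from 3 to 8 wk differed between the sexes by 1.64 (adjusted p = 0.0134). Hepatocyte markers, which define the tissue, were well above background in every channel for 7 of 7, and their summed signal ranged from 531000 to 567000 in M8, from 573000 to 646000 in F8 and from 613000 to 638000 at 3 wk. Of these 7, 0 were called in M8/F8 (5 at an unadjusted p below 0.05, limma, median log2 ratio -0.41). Alb, serum albumin, was called lower in M8/M3 (-0.71, adjusted p = 0.00553, limma) and in M8/M4 (-0.68). Its arrays lay far apart, at -1.10 and -0.33 in M8/M3 and at -1.14 and -0.21 in M8/M4. Of the 7 markers 3 were above 0 in M8/M3 and 5 in M8/M4. Tat was at 0.33 and 0.19 there, not called, and was called higher in F8/F4 (0.65, adjusted p = 0.000207, limma). The part of these cells in the values of the 10 genes was not tested.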

How the data were processed

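The 14 samples were 2-colour Agilent 4x44K v2 arrays of pooled liver RNA. The authors deposited scanner output (Feature Extraction 10.7.1.1) with processed intensity per channel, after linear and LOWESS dye normalization, and the log10 ratio of red over green. The authors' files also gave an error score for each log10 ratio, modelled by Feature Extraction, which weighted an alternative average. The deposited matrix of the series held the same log10 ratios (largest difference 0). The submitters' labels gave each channel's group and dye.

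Here the ratios were converted to log2, turned to male over female or older over younger, stripped of non-uniform outlier spots (0 to 10 per array), and averaged per probe. RefSeq accessions named 26055 probes. One limma 3.58.1 model (R 4.3.3, with data.table version 1.17.8) held all arrays, with a coefficient for each comparison and a dye term. P-values were adjusted by Benjamini-Hochberg over all probes and 7 comparisons, and within each contrast. The test was checked on simulated data. Levels were processed intensities scaled between arrays (Aquantile). Same-numbered arrays held the same pools: replicate differences from age and sex arrays correlated at 0.882 and 0.878 over 21650 probes. Each gene was read by its brightest probe. Up to 4 called genes with the largest ratios were named per list, and 3 nearest genes per called gene. Genes and lists were chosen with earlier results of these data known. Background correction, dye term, slide, probe choice, shared pools, replicate block and single arrays were varied.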

Additional observations from a re-analysis of the deposited data

Results flagged for a closer look

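The change from 3 to 8 wk differed between male and female liver for Nqo1, by -1.21 (log2, M8/M3 minus F8/F3, adjusted p = 0.0227, limma). Among the further genes named in the report, the same contrast was 3.67 for Gstp1, 1.33 for Aox1, -1.10 for Gpx7 and -1.06 for Mat1a, with adjusted p-values of 0.00469, 0.00757, 0.00181 and 0.00281. For Alas2, a gene of haem synthesis chosen after its values were seen, it was 1.64 (adjusted p = 0.0134). From 4 to 8 wk (M8/M4 minus F8/F4) it was 2.78 for Gstp1, -0.85 for Mat1a and -0.83 for Gpx7, with adjusted p-values of 0.0208, 0.0106 and 0.0092. These results were set apart because the test of the difference between the sexes itself was passed.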

How the results depend on the processing

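The calls were recomputed under 26 alternatives, 14 of which left out a single array, and no value of a called result changed its direction. The counts of calls, each a gene in a comparison, were 3 in the sex comparisons, 3 in the male age comparisons, 0 in the female age comparisons, 1 for the difference between the sexes and 0 from 3 to 4 wk. Without the fold threshold the first 3 were 7, 7 and 1. The count for the difference between the sexes was 2 with background-subtracted signals centred on the array median, where Gclc joined (0.71, adjusted p = 0.0251, limma), and 3 with shared pools in the covariance, where Gclc (0.69, 0.0262) and Nfe2l2 (-0.60, 0.0167) joined. The count in the sex comparisons was 4 with these background-subtracted signals and with the error-weighted average, and 2 with normexp or with adjustment within each comparison, and that in the male age comparisons was 2 with normexp. With single arrays left out the count for the difference between the sexes ranged from 0 to 2, and the other counts from 2 to 3, from 2 to 4, from 0 to 0 and from 0 to 0. In the paired fit with the replicate block the counts were 3, 3, 0, 1 and 0, and no call changed. Nqo1 in M8/F8 (-1.03 to -0.96) and in M8/M3 (-1.37 to -1.01) kept its call under all 26 alternatives. The cause of these differences was not tested. All 12 probes were well above background, and each comparison had 2 arrays.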

Other observations

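Peroxisomal oxidases and matrix enzymes, which share the organelle of catalase, were called in both directions. Of 14 tested, 2 were called higher and 2 lower in M8/M3 (7.81% and 10.1% of all genes), 1 higher and 1 lower in F8/F3 (5.08% and 6.64%), and 1 higher and 1 lower in M8/F8 (2.65% and 3.76%). Uox, the urate oxidase, rose with age in both sexes, with log2 ratios of 0.87 and 1.13 in M8/M3 and of 1.01 and 0.75 in F8/F3 (adjusted p 0.00359 and 0.00582, limma). Hao2, a hydroxyacid oxidase, was lower in adult male liver, at -3.84 and -6.81 in M8/F8 (adjusted p = 0.0092).

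Of 9 genes of selenoprotein synthesis, which serves Gpx1 and Txnrd1, 1 was called higher (Trit1, 0.55 and 0.65, adjusted p = 0.00045, limma) and 0 lower in M8/M3, where 7.81% of all genes were higher, and 0 were called in M8/F8 and F8/F3 (5 and 3 at an unadjusted p below 0.05).

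Among markers of other liver cells, 3 of 5 mesenchymal, 2 of 5 bile duct, 1 of 4 endothelial and 2 of 5 lymphocyte genes tested were called lower in M8/M3, and none higher. In F8/F3 the counts of lower genes were 3, 1, 1 and 0. Of all genes 10.1% were called lower in M8/M3, 6.64% in F8/F3 and 3.76% in M8/F8. In M8/F8 1 of 4 lymphocyte genes tested was called lower, and none of the other 3 lists held a called gene (at an unadjusted p below 0.05, limma, 2 mesenchymal, 2 bile duct and 1 endothelial).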
